A study of Mus musculus with 5 samples.

Results

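The genes described here, 7 of the 53927 in the deposited table, lead from the matrix around the early kidney to the growth factor it acts on: Fras1, Frem1, Frem2, Grip1, Npnt, Itga8 and Gdnf. They were picked by gene symbol, with the KO and WT levels of these libraries already known. Their genotype differences are therefore given as a description, with no p-value for any of them, and counts past a threshold stand only beside the same share of all genes. The libraries came from cultured mouse nephron progenitor cells, the precursors of the kidney's filtering units. KO stands for Dis3l2-/- embryos (3 libraries) and WT for Dis3l2+/+ embryos (2 libraries), all on the C57BL/6J strain and all from cells passaged 1 time. Dis3l2 encodes an exonuclease that digests uridylated RNA, and human patients who lack it have the overgrowth disorder Perlman syndrome. The sources used here do not give the embryos' age, the part of Dis3l2 that was removed, or whether each library is a separate embryo or litter, so the spread between libraries may be partly technical.

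FRAS1, FREM1 and FREM2 are large proteins that form a complex in the basement membrane beneath embryonic epithelia, where each helps to keep the others in place. GRIP1 is an intracellular scaffold with PDZ domains that carries FRAS1 and FREM2 to the basal side of the cell. Loss of any of these genes in mice can cause blebbing and failure of kidney outgrowth, and human mutations in FRAS1, FREM2 or GRIP1 cause Fraser syndrome. Nephronectin, the product of Npnt, is a matrix protein that binds the integrin made of the Itga8 and Itgb1 chains. In the embryonic kidney nephronectin is made by the ureteric bud and the integrin by the mesenchyme around it, which secretes GDNF. GDNF in turn makes the bud grow and branch through its receptors Ret and Gfra1, and mice without Itga8 or Npnt have reduced or delayed Gdnf at the time of outgrowth.

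The starts of Gdnf and Npnt, the genes at the 2 ends of the signal, are shown because the results below turn on their opposite behaviour between libraries. Each line gives the 250 bases before a RefSeq start in GRCm38.p6, read 5′ to 3′ on the gene's strand. Capitals mark 3 promoter motifs, searched on both strands and spelled out after the sequences. The windows lie at chr15:7809798-7810047 and chr15:7813477-7813726 on the plus strand for Gdnf, and at chr3:132950292-132950541 on the minus strand for Npnt.
Gdnf, first start: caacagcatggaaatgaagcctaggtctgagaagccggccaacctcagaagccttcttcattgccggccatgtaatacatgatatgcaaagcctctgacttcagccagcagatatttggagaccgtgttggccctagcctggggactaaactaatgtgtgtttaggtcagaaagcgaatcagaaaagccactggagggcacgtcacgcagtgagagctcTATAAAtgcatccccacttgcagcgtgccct
Gdnf, second start: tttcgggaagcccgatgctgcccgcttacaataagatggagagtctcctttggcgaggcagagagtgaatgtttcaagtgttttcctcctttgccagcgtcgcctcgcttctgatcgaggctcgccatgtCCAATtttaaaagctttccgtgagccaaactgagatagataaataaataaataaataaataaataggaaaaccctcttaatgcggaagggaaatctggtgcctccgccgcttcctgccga
Npnt, upstream start: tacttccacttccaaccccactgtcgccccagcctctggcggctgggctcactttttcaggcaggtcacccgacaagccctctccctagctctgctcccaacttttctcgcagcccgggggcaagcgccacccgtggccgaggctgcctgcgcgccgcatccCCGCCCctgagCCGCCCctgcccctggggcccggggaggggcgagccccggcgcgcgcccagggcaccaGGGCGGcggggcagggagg
In the first Gdnf window the TATA box, TATAAA, lies 31 to 26 bases before the start, and 12.4% of 32851 such windows hold that motif. The second Gdnf window has a CCAAT box 120 to 116 bases before the start (33.9% of windows). The Npnt window shown has 3 GC boxes, the motif GGGCGG (at least 1 in 32.7% of windows), and its GC content was 74.0%, against 50.8% and 46.8% in the Gdnf windows. The other Npnt window, at chr3:132949815-132950064 and not shown, held none of these motifs and had a GC content of 69.6%. TCAGGTT, the core of the MEF3 motif bound by Six2 and its relatives, was in none of the 11 windows of the 6 genes the RefSeq table holds, and is in 3.49% of all windows. These matches describe the letters, not binding. Fras1 had no window.

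Depth, read from the steps that 1 read makes in low values, was 49.25, 32.23 and 19.61 M assigned reads in KO replicates 1, 2 and 3, and 22.34 and 28.26 M in WT replicates 1 and 2. Levels are CPM, reads per M of the effective library size, as deposited. Dis3l2 itself stood at 6.50, 4.93 and 4.70 CPM in the KO libraries, against 16.04 and 12.18 CPM in the WT libraries, so the genotypes did not overlap. Xist and the Y-linked Ddx3y marked KO replicates 1 and 2 and WT replicate 2 as female and KO replicate 3 and WT replicate 1 as male. The progenitor marker Six2 ran from 18.58 to 31.86 CPM in KO and from 18.82 to 18.97 CPM in WT. Of 11 progenitor markers, with Itga8 and Gdnf left out, 10 passed the filter on low values, but Pax2, a defining factor, was at most 0.66 CPM in KO and 0.18 CPM in WT. Of 17 ureteric bud and collecting duct markers, 8 were below 0.5 CPM in every library, among them Ret, Wnt9b, Wnt7b and Emx2. Their summed level was 15.53 to 28.23 CPM in KO and 13.44 to 25.57 CPM in WT, and most of it was Wnt11 and Hoxb7. Foxd1, the defining marker of cortical stroma, was at most 0.25 CPM. The 12 stromal markers together still ran from 1239 to 3084 CPM in KO and from 1329 to 2582 CPM in WT, through collagens, smooth muscle genes and Aldh1a2, which encodes an enzyme of retinoic acid synthesis. Among these markers Aldh1a2 had 178.3, 139.44 and 127.86 CPM in KO libraries and 323.35 and 244.09 CPM in WT libraries. Pdgfra, a growth factor receptor gene, had 2.15, 3.34 and 3.53 CPM in KO libraries and 4.27 and 6.28 CPM in WT libraries. Both are named because they lay wholly lower in KO, as did 6.98% of all genes tested. The other 7 stromal markers tested overlapped, and the part of the stromal markers in the results was not tested. The summed levels did not overlap for the markers of podocytes, which also make nephronectin, at 26.8 to 39.54 CPM in KO and 40.8 to 42.99 CPM in WT. Nor did they for the leukocyte markers, at 5.01 to 5.69 CPM in KO and 7.28 to 7.65 CPM in WT. That leukocyte sum was almost all Cd68, Mrc1 and Csf1r, as Ptprc, Adgre1, Aif1 and Cd52 were each at most 0.11 CPM. Cd68 and Mrc1 lay wholly lower in KO, while Csf1r overlapped, with means of 1.29 CPM in KO and 0.94 CPM in WT. The part of the podocyte or leukocyte markers in the results was not tested. In bulk RNA, fewer cells of a type and less RNA per cell cannot be told apart.

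The Fraser complex genes behaved differently from each other. Fras1 averaged 1.93 times its WT level in KO without overlap, Frem1 and Grip1 overlapped between genotypes, and Frem2 was low. Fras1 (ENSMUSG00000034687.8, chromosome 5, 96373955 to 96784728, plus strand, GRCm38) had 96.26, 104.14 and 91.42 CPM in KO libraries, against 42.71 and 58.17 CPM in WT libraries. The genotypes did not overlap, the lowest KO value being 1.57 times the highest WT value. The means were 97.3 ± 6.42 CPM in KO and 50.4 ± 10.9 CPM in WT (SD, n = 3 and 2). On the log2(CPM + 1) scale, which understates changes of low genes, the fitted KO minus WT difference was 0.95 with a standard error of 0.16. It ran from 0.73 without WT replicate 1 to 1.17 without WT replicate 2. The KO libraries lay closer together than the WT libraries, with the highest 1.14 times the lowest in KO and 1.36 times in WT. In the authors' deposited table Fras1 had a log2 fold change of 0.95. An antisense gene model covers 0.90% of the Fras1 exon length and was listed at 0 in every library.

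**Figure D1:**
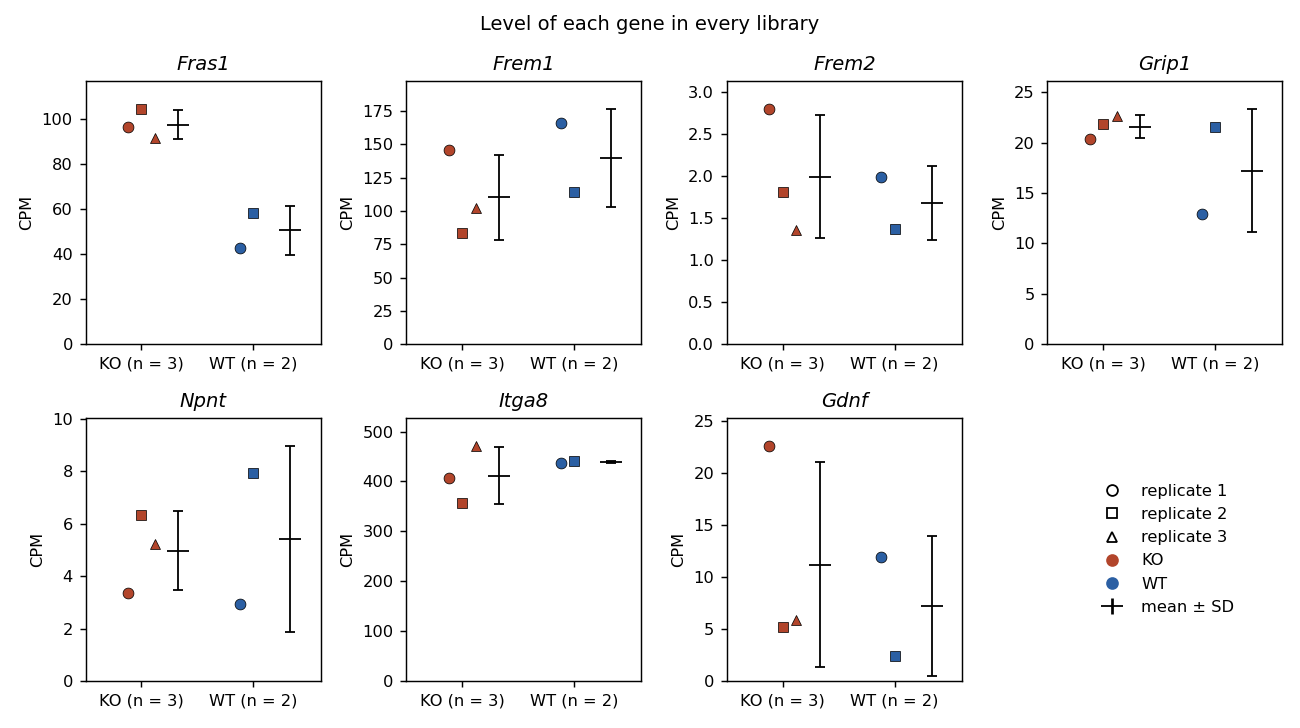
Level in CPM (y axis, from 0) of each of the 7 genes in 3 KO and 2 WT libraries. Points are libraries, shapes are replicate numbers, and the bar beside them is the mean ± SD. Fras1 is the gene whose KO values (91.42 to 104.14 CPM) lie wholly above its WT values (42.71 and 58.17 CPM).

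Frem1 (chromosome 4, 82897920 to 83052339, minus strand), which encodes a secreted member of the complex, had 145.35, 83.27 and 102.19 CPM in KO libraries and 165.55 and 113.88 CPM in WT libraries. KO replicate 1 lay between the WT libraries, so the groups overlapped. The means were 110.3 ± 31.8 CPM in KO and 139.7 ± 36.5 CPM in WT (SD, n = 3 and 2), and the fitted difference was -0.35 with a standard error of 0.27. It was -0.08 without WT replicate 1 and -0.62 without WT replicate 2. Its mean difference was opposite in sign to that of Fras1, with which the Frem1 product shares a complex.

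Frem2 (chromosome 3, 53513938 to 53657355, minus strand), the second membrane-anchored member, was the lowest of the 7 genes. It had 2.79, 1.81 and 1.36 CPM in KO libraries and 1.99 and 1.37 CPM in WT libraries. These values rest on between 29 and 131 reads, and the 95% exact Poisson intervals of KO replicate 3 (0.91 to 1.96 CPM) and WT replicate 1 (1.44 to 2.69 CPM) overlap. Those of KO replicate 1 (2.33 to 3.31 CPM) and WT replicate 2 (0.97 to 1.87 CPM) do not. Intervals cover counting error only. The fitted difference was 0.14 with a standard error of 0.24, and it was -0.05 without KO replicate 1 and -0.03 without WT replicate 2. Frem3, the remaining gene of the family, was at most 0.05 CPM.

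Grip1 (chromosome 10, 119453830 to 120087261, plus strand), the intracellular carrier, had 20.35, 21.80 and 22.62 CPM in KO libraries and 12.89 and 21.52 CPM in WT libraries. The KO values were close together, with a mean of 21.6 ± 1.15 CPM (SD, n = 3), and WT replicate 2 lay among them. WT replicate 1 stood alone at the low end. The fitted difference was 0.35 with a standard error of 0.22, and it was 0.00 without WT replicate 1 and 0.70 without WT replicate 2.

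The integrin gene Itga8 (chromosome 2, 12106632 to 12301922, minus strand) was abundant and nearly level across libraries. It had 407.42, 355.95 and 471.15 CPM in KO libraries and 437.79 and 440.75 CPM in WT libraries. The WT values lay inside the KO range. The highest of the 5 libraries was 1.32 times the lowest, the narrowest range among the 7 genes, and the fitted difference was -0.10 with a standard error of 0.16. Its mean ranked 129th of 14884 genes tested. An antisense gene, E030013I19Rik, covers 5.05% of its exon length and ran from 13.13 to 18.37 CPM. The sources used here do not say if reads were counted by strand. The partner chain Itgb1 had 815.91, 1031.45 and 1119.81 CPM in KO libraries and 896.36 and 969.37 CPM in WT libraries, again with the WT values inside the KO range.

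The ligand gene Npnt (chromosome 3, 132881745 to 132950291, minus strand) was low in these cells and varied within each genotype. It had 3.35, 6.33 and 5.22 CPM in KO libraries and 2.92 and 7.93 CPM in WT libraries. The lowest and the highest value were both WT libraries, 2.72-fold apart, and all 3 KO libraries lay between them. Their Poisson intervals, 2.25 to 3.74 CPM in WT replicate 1 and 6.93 to 9.04 CPM in WT replicate 2, did not overlap. The fitted difference of -0.02 (standard error 0.38) followed whichever WT library was kept, at -0.61 without WT replicate 1 and 0.57 without WT replicate 2. It was also positive without KO replicate 1, at 0.19. The summed ureteric bud and collecting duct markers were 21.04, 28.23 and 15.53 CPM in KO libraries and 13.44 and 25.57 CPM in WT libraries, highest in the libraries of each genotype where Npnt was highest. Below that the order in KO differed, with the sum lowest in replicate 3 and Npnt lowest in replicate 1. Among these markers Cdh16, an epithelial cadherin gene named for its values, had 0.17, 2.99 and 0.14 CPM in KO libraries and 0.00 and 3.65 CPM in WT libraries. Hoxb7 instead was highest in KO replicate 1, with 9.46, 8.86 and 7.48 CPM in KO libraries and 7.23 and 7.76 CPM in WT libraries. The part of these markers in the spread of Npnt was not tested.

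Gdnf (chromosome 15, 7810846 to 7837575, plus strand), the output of the pathway, varied more between libraries than any of the other 6 genes. It had 22.59, 5.15 and 5.83 CPM in KO libraries and 11.96 and 2.42 CPM in WT libraries. Replicate 1 libraries (the libraries numbered 1) were the highest of their genotype in both cases, and the WT one lay above the remaining KO libraries. The highest KO library was 4.39 times the lowest and the highest WT library 4.94 times the lowest, which is far outside counting error (1060 reads in KO replicate 1 and 69 in WT replicate 2). The means were 11.2 ± 9.88 CPM in KO and 7.19 ± 6.75 CPM in WT (SD, n = 3 and 2). The fitted difference of 0.58 had a standard error of 0.73, and it was 1.54 without WT replicate 1, -0.38 without WT replicate 2 and -0.04 without KO replicate 1. The SD of Gdnf within genotypes, pooled over both, was 1.18 on the log2(CPM + 1) scale, larger than in 99.6% of 3912 genes with a mean within 2-fold of its own. The same comparison put Npnt at 94.4%, Frem1 at 91.7%, Grip1 at 77.2%, Frem2 at 73.9%, Fras1 at 63.0% and Itga8 at 35.2% of the genes near their own levels.

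Over the genotype contrast as a whole, none of the 7 genes passed limma's test with Benjamini-Hochberg adjustment over all genes, where 0.00672% of 14884 genes did. Dis3l2 itself did not pass this limma test, with a difference of -1.24 (standard error 0.21) and an adjusted p of 0.95. In the authors' deposited table, from edgeR's likelihood ratio, Dis3l2 had an FDR of 0.00855. Not passing therefore does not show that a gene was unchanged. At an unadjusted p under 0.05 there was 1 of 7 against 2.77% of all genes. In 1 of 7 the KO values all exceeded the WT values (7.85% of all genes), and in 0 of 7 all were smaller (6.98%). None of the 7 had an FDR under 0.05 in the authors' deposited table (0.0315% of its genes). As the genes were chosen with this contrast known, nothing is read from these counts. The median difference was 0.14 over the 7 genes and 0.01 over all genes tested, with 4 positive and 3 negative. In 4 of 7 genes the KO minus WT difference had opposite signs in female and male libraries, in every pair of the same sex, and so it did in 42.4% of all genes. A term for a genotype difference that varies with sex was added after seeing the data and is built from the libraries the choice of genes had used, with 1 library in each sex and genotype except female KO. It passed for 0 of 7 genes and for 0% of all genes (limma, Benjamini-Hochberg adjustment). At an unadjusted p under 0.05 it had 1 of 7 against 4.78% of all genes, and nothing is read from it.

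**Figure D2:**
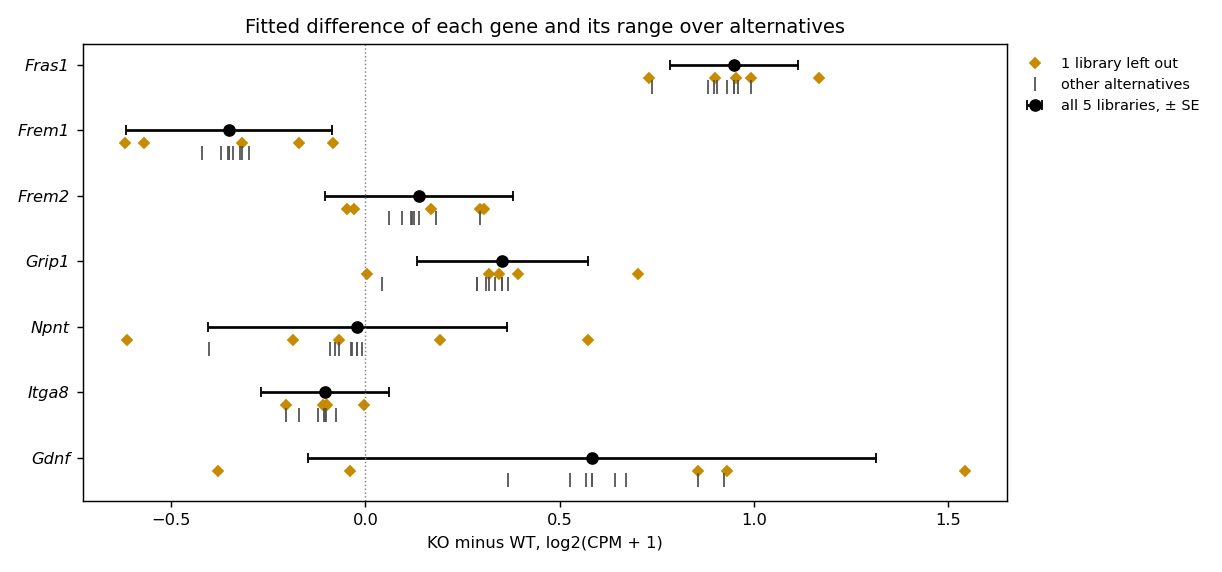
Fitted KO minus WT difference on the log2(CPM + 1) scale (x axis) for each gene, with its standard error from all 5 libraries (black), with 1 library left out (diamonds) and under the other alternatives (ticks). Fras1 stays between 0.73 and 1.17, while Gdnf runs from -0.38 to 1.54 and Npnt from -0.61 to 0.57.

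Levels of different genes were compared per kb of merged exon length in GENCODE M21, with the union of all isoforms counted. On that scale Itga8 led with a mean of 57.4 CPM per kb over the 5 libraries. It was followed by Frem1 at 8.73, Fras1 at 4.44, Gdnf at 2.61, Grip1 at 2.46, Npnt at 1.02 and Frem2 at 0.14 CPM per kb. The integrin chain thus stood far above its ligand: Npnt reached at most 1.26 CPM per kb in KO and 1.58 CPM per kb in WT, where the lowest values of Itga8 were 48.3 in KO and 59.4 in WT. Frem1 and Fras1 nearly met in KO replicate 2, at 5.96 and 5.88 CPM per kb. In the WT libraries Frem1 averaged 9.995 ± 2.61 and Fras1 2.85 ± 0.62 CPM per kb (SD, n = 2). Gdnf ran from 0.66 to 6.15 CPM per kb and so overlapped Frem1, Fras1, Grip1 and Npnt, and its place in the order is not set by these libraries. The highest Frem2 value, 0.21 CPM per kb, lay below the lowest of Npnt, 0.58 CPM per kb.

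**Figure D3:**
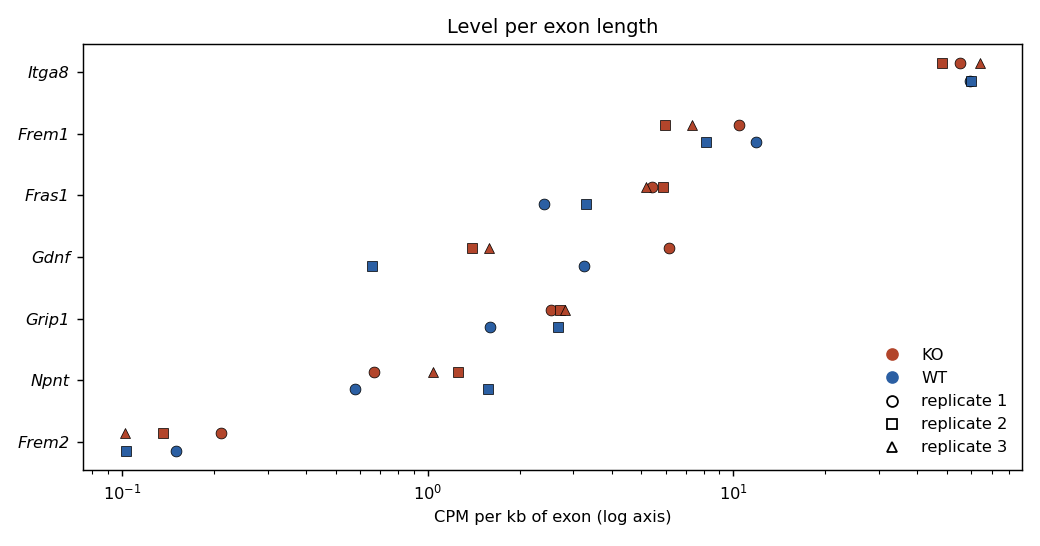
Level per kb of exon (x axis, log scale) of the 7 genes, ordered by their mean over 5 libraries, with KO libraries above WT libraries on each line. Itga8 lies between 48.3 and 63.9 CPM per kb and Frem2 between 0.10 and 0.21 CPM per kb.

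The genes whose pattern was most like that of Gdnf were sought by the root mean square difference of log2(CPM + 1), each gene centred on its own mean over the 5 libraries, among 9858 genes with a mean of at least 5 CPM. With 5 libraries no correlation is given. Nearest was Kdr, which encodes a VEGF receptor, with a difference of 0.13. Kdr had 35.61, 10.70 and 10.96 CPM in KO libraries and 18.60 and 5.27 CPM in WT libraries. Next came Epb41l4a, a gene of the band 4.1 family (0.26), and Has2, a hyaluronan synthase gene (0.28). Kdr is also an endothelial marker. Of the other endothelial markers, Cldn5, Flt1, Esam, Cdh5 and Pecam1 were each at most 0.78 CPM in KO and 0.70 CPM in WT. Tek was at most 1.09 CPM in KO and 1.76 CPM in WT. Emcn had 23.53, 27.10 and 34.19 CPM in KO libraries and 28.84 and 64.59 CPM in WT libraries. The 8 endothelial markers together, mostly Kdr and Emcn, ran from 40.27 to 60.65 CPM in KO and from 49.01 to 73.74 CPM in WT. The part of endothelial cells in the levels of Kdr or Gdnf was not tested. The progenitor marker Cited1, taken from the marker list for its values, had 17.05, 4.74 and 2.73 CPM in KO libraries and 15.16 and 1.40 CPM in WT libraries. Its distance to Gdnf was 0.40, and 0.05% of the genes searched were nearer. As Cited1 was picked for its values, nothing is read from that rank. Not every progenitor marker followed Gdnf. Six2 lay at 0.81, with 10.65% of genes nearer, and had 18.97 and 18.82 CPM in WT replicates 1 and 2. Osr1 was highest in KO replicate 2, at 64.56 CPM. The other 6 of the 7 genes were farther from Gdnf than Cited1, from Frem2 at 0.74 to Npnt at 1.38, and 98.02% of genes were nearer than Npnt.

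Other genes linked to Gdnf followed the same libraries, and are named here because of their values. Sall1, a transcription factor of the kidney mesenchyme, had 87.99, 49.62 and 47.92 CPM in KO libraries and 81.66 and 37.00 CPM in WT libraries. Kif26b, a kinesin gene that in mice is needed for the mesenchyme to adhere around the bud, had 257.78, 160.43 and 145.31 CPM in KO libraries and 248.88 and 123.50 CPM in WT libraries. In both genes the libraries numbered 1 lay above the other 3. Bmp4, a ligand that limits budding, ran the other way, with 42.88, 175.99 and 127.16 CPM in KO libraries and 47.53 and 94.12 CPM in WT libraries. The summed stromal markers were likewise lowest in the libraries numbered 1, at 1239 CPM in KO and 1329 CPM in WT, and at least 2582 CPM in the others. Not every stromal marker followed that sum. Meis1 had 86.77, 39.67 and 38.61 CPM in KO libraries and 51.06 and 35.81 CPM in WT libraries, and Aldh1a2 was also highest in the library numbered 1 of each genotype. The part of these genes in the spread of Gdnf was not tested.

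Npnt was low in the libraries where Gdnf was high. Its nearest genes were Mical2, an actin-oxidising enzyme gene (difference 0.08), Islr, which encodes a secreted leucine-rich repeat protein (0.10), and Tnfrsf10b, a death receptor gene (0.10). Mical2 had 18.11, 28.76 and 29.20 CPM in KO libraries and 15.95 and 39.46 CPM in WT libraries. The genes nearest to Itga8 were Gm21781, the checkpoint kinase gene Chek1 and Rc3h1, which encodes the RNA-binding protein roquin, at 0.02, 0.02 and 0.03. As Itga8 hardly varied, so little difference mainly says that these genes were level too.

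**Figure D4:**
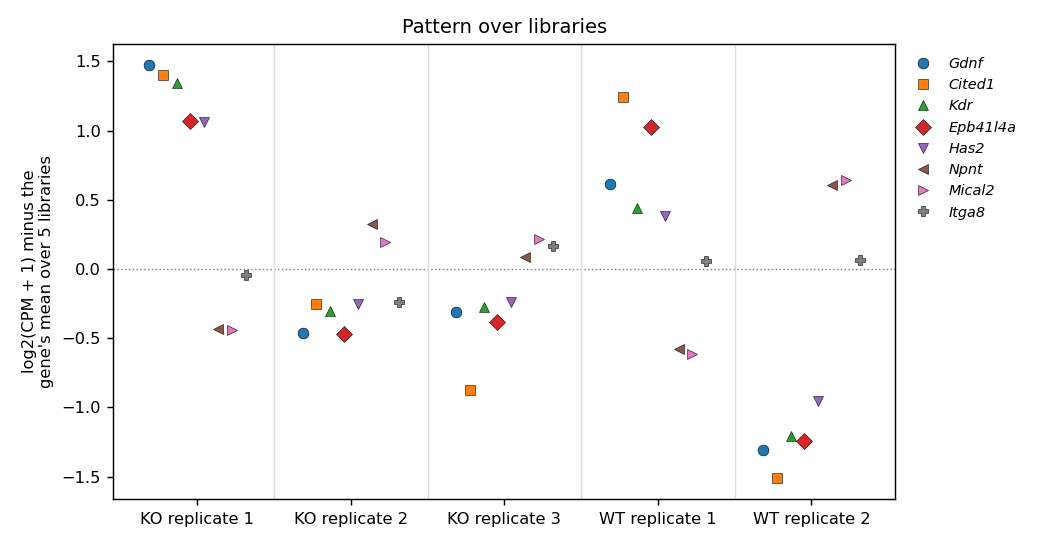
Log2(CPM + 1) minus each gene's own mean over the 5 libraries (y axis) in each library (x axis), for Gdnf, Npnt and Itga8, genes near to Gdnf or Npnt in pattern, and Cited1. Gdnf, Cited1, Kdr, Epb41l4a and Has2 are above 0 in the libraries numbered 1 and below 0 in the other 3, and Npnt and Mical2 do the reverse.

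The wider pathway was compared through 7 lists of partner genes, with 103 genes in all, of which 83 passed the filter. No partner gene passed limma's test after adjustment over all genes, and neither did Dis3l2. At an unadjusted p under 0.05 there were 8 of 83, against 2.77% of all genes. The KO values all exceeded the WT values for 14 of the 83 (16.9%, where all genes tested gave 7.85%) and were all smaller for 2 (2.41%, where all genes gave 6.98%). The median difference was 0.08 over the partner genes and 0.01 over all genes, of which 52.87% had a positive difference. With 1 library left out, the share above was 22% to 35.8% of the partner genes, and 11% to 23.6% of all genes, and the share below was 3.66% to 15.7% of the partner genes and 9.56% to 21.6% of all genes. Without both libraries numbered 1 the share above was 53% of the partner genes and 31.4% of all genes, and the share below 21.7% and 26.2%. The lists were chosen with results of these libraries known, and genes of a list are not independent.

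Among the relatives and partners of the Fraser complex 5 of 10 genes were tested, with a median difference of 0.13. Grip2, the close relative of Grip1, was at most 0.04 CPM. Col7a1, whose collagen anchors basement membranes, had a difference of 0.40 (standard error 0.21), and its KO values (1.08 to 2.15 CPM) lay above its WT values (0.79 and 1.02 CPM). Fbn2, a fibrillin gene, had a difference of -0.18 (standard error 0.16), with KO wholly below WT. Its gap was narrow, with 629.09 CPM in KO replicate 1 and 634.50 CPM in WT replicate 1. Egfl6, which encodes the nearest relative of nephronectin, was at most 0.25 CPM.

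Basement membrane genes gave 19 tested of 20, with 14 positive differences and a median of 0.14. Lama1, an early laminin chain, had 6.05, 7.55 and 7.52 CPM in KO libraries and 3.29 and 4.28 CPM in WT libraries. Its KO values lay above its WT values, and the fitted difference was 0.75 with a standard error of 0.19. Sparc, a matrix glycoprotein gene, had a difference of 0.41 (standard error 0.25) and Fn1, which encodes fibronectin, 0.40 (0.24), both without overlap. For Fn1 the gap was narrow, with 2342.37 CPM in KO replicate 3 and 2332.37 CPM in WT replicate 2. Lamc1, the laminin gamma chain shared by most kidney laminins, had -0.08 (0.13).

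The integrin chains had a median difference of 0.08 over 13 tested of 15. Itga9, whose chain can pair with Itgb1 to bind tenascin C, had 47.18, 48.31 and 49.85 CPM in KO libraries and 36.08 and 40.44 CPM in WT libraries, a difference of 0.33 with a standard error of 0.13. Itga3, a laminin receptor chain, had 0.40 (0.19), also without overlap. All 12 integrin adaptors were tested, with a median of 0.05. Of these the talin gene Tln1, whose product links integrins to actin, had a difference of 0.43 (0.17) and the kinase-like adaptor gene Ilk 0.17 (0.13), each with KO wholly above WT. The lowest KO value of Ilk was 92.48 CPM and its highest WT value 89.36 CPM.

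Of 12 genes for GDNF-like ligands and their receptors 5 were tested. Ret, the signalling receptor, was at 0.19, 0.19 and 0.42 CPM in KO libraries and at 0.14 CPM in both WT libraries, near the level of 3 reads (0.06 to 0.14 CPM). Gfra1, the co-receptor that binds GDNF, had 1.68, 0.87 and 1.36 CPM in KO libraries and 2.37 and 3.05 CPM in WT libraries. The KO values lay below the WT values, and the fitted difference was -0.70 with a standard error of 0.21. Ncam1, an adhesion gene whose product can also bind GDNF, had 584.02, 718.38 and 630.75 CPM in KO libraries and 481.29 and 425.23 CPM in WT libraries. Its difference was 0.50 (standard error 0.16), in the opposite direction.

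The 21 regulators and early kidney factors linked to Gdnf included 16 tested, with 14 positive differences and a median of 0.11. Osr1, an early factor of the kidney field, had 41.47, 64.56 and 27.32 CPM in KO libraries and 22.26 and 19.48 CPM in WT libraries, a difference of 0.97 with a standard error of 0.33. Hoxc11, a member of the Hox11 group that with Eya1 and Pax2 activates Gdnf, had 0.32 (0.13), and Eya1 had 0.03 (0.23). Of 13 genes that limit Gdnf or its signalling, 7 were positive, with a median of 0.01. Slit2, whose product restricts the Gdnf domain through Robo2, had 43.79, 25.79 and 28.31 CPM in KO libraries and 23.97 and 20.36 CPM in WT libraries, a difference of 0.50 with a standard error of 0.24. Foxc2, a forkhead gene, had 0.77 (0.23), on levels of at most 3.13 CPM, and Robo2 had -0.10 (0.19).

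**Figure D5:**
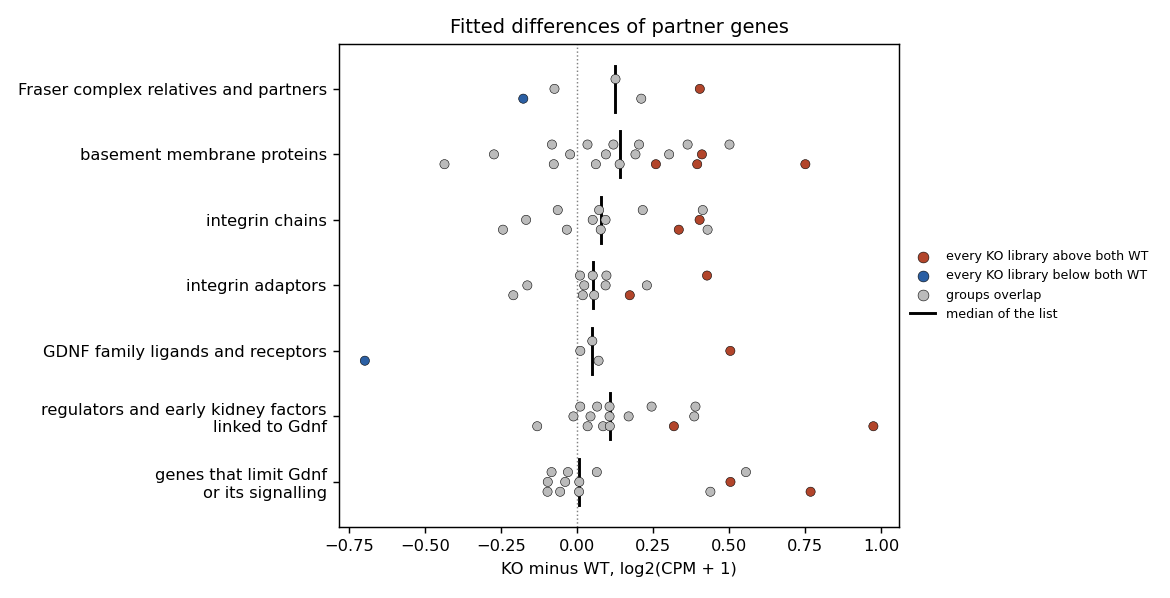
Fitted KO minus WT difference on the log2(CPM + 1) scale (x axis) for the partner genes tested, 1 point per gene, in the 7 lists. Black bars are list medians, which lie between 0.01 and 0.14. Osr1 (0.97) and Gfra1 (-0.70) are the outermost points.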

How the data were processed

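RNA-seq of total RNA gave 1 table with 5 libraries (3 KO, 2 WT), sequenced as single reads from stranded total RNA libraries, per the labels. The build was mm10 and the tools were HISAT2 2.1.0, featureCounts and edgeR 3.20.1, per the submitters' processing notes. The sources used here give no annotation release, strand setting or handling of reads with several matches. The deposited value of a gene in a library is a signal, reads per M of that library's effective size (CPM), given to 2 decimals. The authors also deposited log2 fold changes and mean log2 CPM, the likelihood ratio as a score, and p-values with FDR. These are quoted as the authors' values. Depth was read from the step that 1 read makes in low values. As rounding to 2 decimals is large against that step in the deeper libraries, the reads served only for counting intervals and no count test was run.

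All 5 libraries were fitted with limma 3.58.1 in R 4.3.3 (trend option, log2(CPM + 1), genotype as the only term), on the 14884 genes that reached 0.5 CPM in 2 libraries or more. P-values are two-sided and adjusted by Benjamini-Hochberg over all genes, with a threshold of 0.05. The fit was tried on simulated data with the same random spread for every gene. That says little about genes that vary more between libraries, such as Gdnf. Gene models came from GENCODE M21 (53274 IDs matched) and start windows from RefSeq. The 7 genes, the gene lists and the alternatives were chosen with earlier results of these data known. Partner genes are named where every KO library lay to 1 side of both WT libraries at a mean of at least 1 CPM (up to 3 a list, largest difference first). Ret, Gfra1, Itgb1, Frem3, Six2 and Dis3l2 are named whatever their values, and other genes are named for their values or as marker genes.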

Additional observations from a re-analysis of the deposited data

Results flagged for a closer look

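In 4 of the 7 genes the KO minus WT difference had opposite signs in the 2 sexes, as set from Xist and Ddx3y, in every pair of libraries of the same sex, as 42.4% of all genes tested did. The female comparison sets KO replicates 1 and 2 against WT replicate 2, and the male one sets KO replicate 3 against WT replicate 1. On the log2(CPM + 1) scale Gdnf differed by 1.82 in female and -0.92 in male libraries. Npnt differed by -0.66 in female and 0.67 in male libraries, Frem2 by 0.46 and -0.34, and Itga8 by -0.21 and 0.11. Grip1, at -0.03 in female and 0.77 in male libraries, differed in sign only on the means. Fras1 was positive in both, at 0.77 in female and 1.08 in male libraries. A genotype by sex term in limma, chosen after seeing the data and left with 1 residual degree of freedom, passed for none of 14884 genes (0%) after adjustment, and 712 (4.78%) had an unadjusted p under 0.05. Each sex has 1 WT library, so sex and library cannot be told apart.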

How the results depend on the processing

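Fras1, Frem1, Grip1 and Itga8 kept the sign of their difference under all 14 alternatives. Frem2, Npnt and Gdnf each changed sign without KO replicate 1 and without WT replicate 2 and under no other alternative (13 were run for Frem2, which a filter of 2 CPM removes). The number of genes past the threshold, 1 with all libraries, was 0 with a pseudocount of 5, with no filter, with median-of-ratios scaling and with a sex term. It was 15 without both libraries numbered 1, an alternative chosen after seeing the data, and 0 to 8 with 1 library left out. With a replicate block it was 390 (2.62% of all genes tested), and the median of the 7 genes was 0.29. Of the 7 genes 2 passed (Fras1 and Gdnf), and of the 83 partner genes tested 2 passed (Osr1 and Foxc2). Nothing is read from these counts. Deviations from the genotype means correlated across genes at 0.41 for the libraries numbered 1 and 0.54 for those numbered 2. With 2 WT libraries the WT deviations mirror each other, so both values rest on the same WT difference and are not separate observations. No label says what a number marks, so the block has no basis in the design. Number 3 occurs only in KO, so the block takes no genotype difference from that library. Its fitted differences for the 7 genes equal those without KO replicate 3, and so these alternatives do not count separately. The median of the 7 genes was -0.039 to 0.29 with 1 library left out. With 1 WT library left, its spread is assumed to be that of the KO libraries. Low counts limit genes such as Frem2 (29 to 131 reads). The fit with genotype alone has 3 residual degrees of freedom, and the block leaves 1.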
